A study of Mus musculus with 6 samples.

Results

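Tetraspanins are small proteins that cross the membrane in 4 places and gather integrins, proteases and immune receptors into patches of the cell surface. Some sit mainly at the plasma membrane, others mainly in late endosomes and in the vesicles that cells release. In monocytes and macrophages they are known for roles in adhesion, migration, antigen presentation and cell fusion. The 9 genes described here are Cd9, Cd63, Cd81, Cd82, Cd37, Cd53, Cd151, Tspan3 and Tspan4, taken by symbol from a table of 24047 gene rows. All 9 had a row, and all 9 passed the filter on low counts, as did 10626 genes in all.

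The libraries hold RNA of monocytes from wild-type mice of the strain labelled C5/Bl6, aged 8 to 10 weeks, in all of which nephrotoxic nephritis had been induced. Nephrotoxic nephritis is a model of glomerular injury driven by antibodies against the kidney, and the mice were killed on day 13. Kidney monocytes (3 libraries, replicates 7, 8 and 22, named double_pos) were set against monocytes from spleen and bone marrow (3 libraries, replicates 2, 24 and 26, named double). The kidney cells were enriched with a monocyte isolation kit and sorted, while the labels describe neither the isolation of the spleen and marrow cells nor the markers behind the names. No library came from a healthy mouse, and the labels do not say whether a library is 1 animal or a pool. Tissue and handling therefore cannot be told apart, and a p-value here covers the spread among these libraries alone, which may be technical. Kidney values below follow the order of replicates 7, 8 and 22, and spleen and marrow values that of replicates 2, 24 and 26.

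Libraries held 3492391 to 7938223 counts in kidney and 7311991 to 9727489 in spleen and marrow. Lyz2, the macrophage lysozyme gene, was abundant in every library. It stood at 29441 to 32061 CPM (counts TMM-scaled to a common depth) in kidney and 36591 to 53871 in spleen and marrow. Of 11 monocyte genes, all tested, edgeR passed 6 as higher in kidney and 2 as lower (adjusted p under 0.05). Over all tested genes 7.83% were higher and 5.9% lower. Ly6c2 was at 317, 752 and 810 CPM in kidney and 5020 to 5860 CPM in spleen and marrow. Cx3cr1 was at 177, 172 and 233 CPM in kidney and 28.6 to 42.0 CPM in spleen and marrow. The part of monocyte state or subset in the results below was not tested. Transcripts of other cells differed between libraries. The 12 endothelial markers summed to 31.3, 958 and 22.9 CPM in kidney replicates 7, 8 and 22 against 7.52 to 11.8 CPM in spleen and marrow, and the 13 tubule markers to 638, 288 and 1833 CPM against 24.2 to 24.7 CPM. The 10 platelet genes summed to 301 to 435 CPM in kidney and 7.46 to 12.7 CPM in spleen and marrow. Of the 4 tested platelet genes 3 rose, namely Pf4, Gp1bb and Ppbp, compared with 7.83% of all tested genes. Pf4, which macrophages also express, made up 285, 294 and 402 CPM of the kidney sums, and Itga2b, which was not tested, had 1.78, 0.885 and 0 CPM in kidney and at most 0.429 CPM in spleen and marrow. The 8 eosinophil and mast cell genes, 7 of them with a row, summed to 0.356, 0.253 and 167 CPM in kidney, and to 172 to 1533 CPM in spleen and marrow. Sums of the 10 granulocyte precursor genes were 379, 1390 and 16418 CPM for kidney, against 10445 to 12135 CPM for spleen and marrow. Kidney replicate 22 stood apart from the other kidney libraries. Its log2 CPM correlated with theirs across genes at Pearson's r of 0.840 and 0.838 against 0.938 between replicates 7 and 8.

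Of the 9 tetraspanin genes, 5 rose in kidney monocytes, namely Tspan4, Cd81, Cd151, Cd9 and Cd63. None fell with edgeR at an adjusted p under 0.05, and the 4 that did not pass were Cd82, Cd53, Tspan3 and Cd37. Among all 10626 genes tested, 832 were higher (7.83%) and 627 lower (5.9%), or 13.7% in either direction. Without adjustment, 6 of the 9 were higher and 1 was lower at p under 0.05, compared with 15.4% and 12.5% of all tested genes. DESeq2 passed 6 higher and 1 lower, compared with 11% and 9.39% of the 10598 genes to which it gave an adjusted p. The median log2 fold change of the 9 genes was 1.92, and that of all tested genes was 0.05. The 9 genes were chosen with earlier results of these data known, so these counts and the median are description only. They do not stand for the whole family. Of 9 other tetraspanin genes tested, 0 passed as higher and 0 as lower, with a median of -0.12. Levels of kidney and spleen and marrow libraries did not overlap for 6 genes that were higher in kidney and for 1 that was lower, compared with 19.2% and 18.8% of all tested genes (37.9% in either direction). The count of 5 depends on the spleen and marrow libraries. Leaving out replicate 2, 24 or 26 of spleen and marrow left 1 gene, Tspan4, each time, and so did summing replicates 24 and 26 into 1 library. Leaving out any 1 kidney library left at least 5. Over all genes these fits without a spleen and marrow library passed 260 to 289 higher and 179 to 208 lower, so fewer genes of any kind passed.

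**Figure D1:**
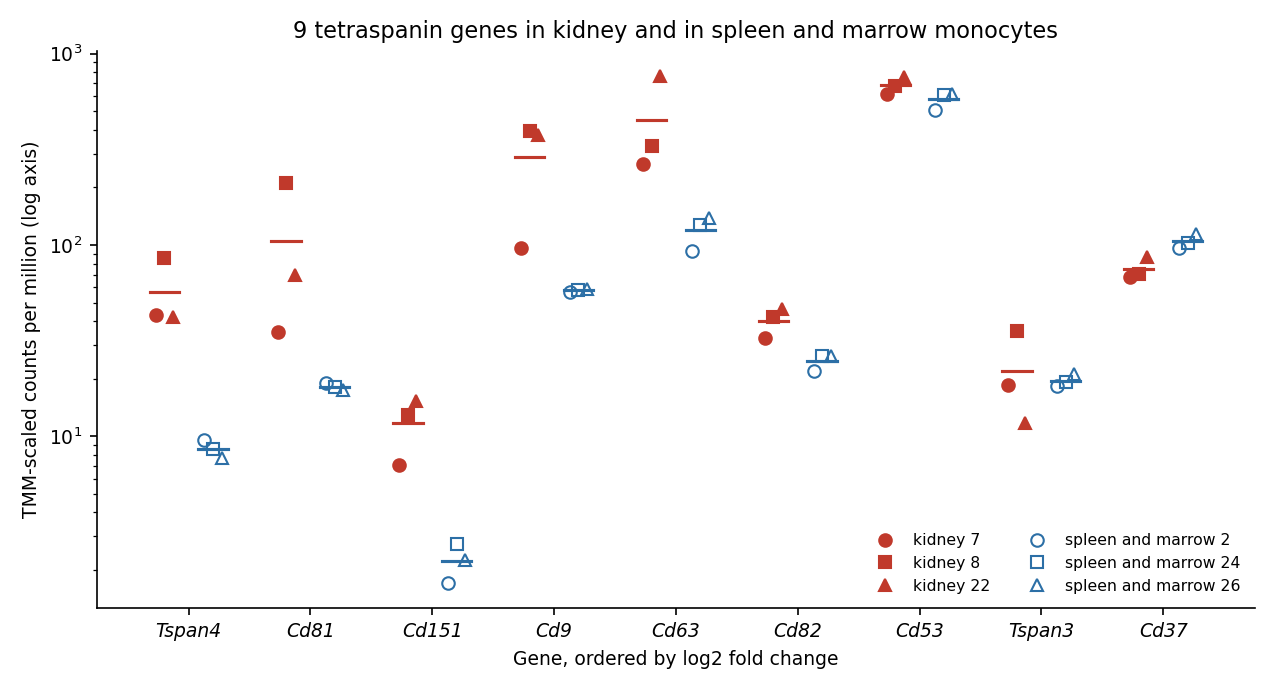
Level of each of the 9 genes in each library, in TMM-scaled CPM on a log axis, kidney libraries (filled) left of spleen and marrow libraries (open), with a bar at each group mean (n = 3). The kidney libraries are spread more widely than the spleen and marrow libraries for Cd9, Cd81, Cd63 and Tspan3, and overlap with them for Cd53 and Tspan3.

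**Figure D2:**
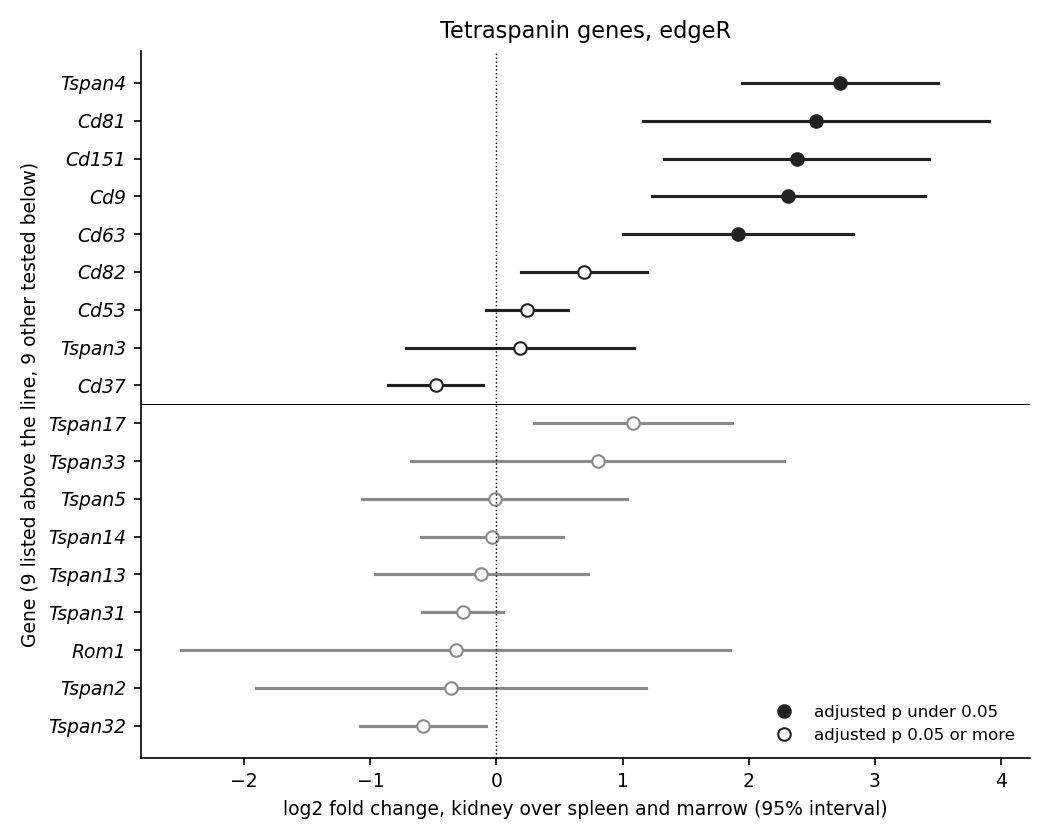
Log2 fold change of kidney over spleen and marrow with its 95% interval from edgeR, for the 9 listed genes (black) and the 9 other tetraspanin genes that passed the count filter (grey). Filled points have an adjusted p under 0.05, which holds for 5 of the listed genes, none of the others and 13.7% of all tested genes.

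Sequence upstream of the start site is shown for 3 genes that rose, Cd9, Cd81 and Cd63, and for Cd53, which did not pass, to show how differently the starts of these genes are built. The sequences are the 250 bases before the start in RefSeq's GRCm38.p6 annotation, written 5′ to 3′ on the gene's strand. They lie at chr6:125494761-125495010 (minus strand) for Cd9, chr7:143052500-143052749 (plus strand) for Cd81, chr10:128909095-128909344 (plus strand) for Cd63 and chr3:106790150-106790399 (minus strand) for Cd53. Capitals mark GGGCGG, the GC box bound by factors of the Sp family, and GAGGAA, a core bound by PU.1, the ETS factor of myeloid cells, each on either strand.
Cd9: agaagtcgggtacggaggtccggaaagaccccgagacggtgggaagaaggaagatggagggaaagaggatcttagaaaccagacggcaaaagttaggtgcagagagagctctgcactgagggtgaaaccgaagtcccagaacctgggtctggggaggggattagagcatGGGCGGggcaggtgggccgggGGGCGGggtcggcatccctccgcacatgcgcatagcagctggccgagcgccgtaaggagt
Cd81: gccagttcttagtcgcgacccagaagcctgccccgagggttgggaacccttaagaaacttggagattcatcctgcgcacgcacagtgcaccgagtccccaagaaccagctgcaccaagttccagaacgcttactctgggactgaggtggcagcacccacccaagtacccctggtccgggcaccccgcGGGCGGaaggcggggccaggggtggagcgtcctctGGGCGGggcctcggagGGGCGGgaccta
Cd63: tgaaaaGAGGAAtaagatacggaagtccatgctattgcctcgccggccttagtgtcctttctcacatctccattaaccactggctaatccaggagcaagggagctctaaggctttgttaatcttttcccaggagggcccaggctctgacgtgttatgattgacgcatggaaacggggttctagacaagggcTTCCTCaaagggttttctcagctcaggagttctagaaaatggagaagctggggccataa
Cd53: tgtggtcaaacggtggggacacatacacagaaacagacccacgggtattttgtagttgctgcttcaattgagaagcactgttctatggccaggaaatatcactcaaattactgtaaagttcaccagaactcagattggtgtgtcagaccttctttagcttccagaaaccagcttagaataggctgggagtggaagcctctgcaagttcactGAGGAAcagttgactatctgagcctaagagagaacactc
Cd9 and Cd81 had 2 and 3 GC boxes, 16 CpG pairs each, and 61.6% and 65.6% G and C, whereas Cd63 and Cd53 had no GC box, 6 and 2 CpG pairs, and 48.8% and 45.2% G and C. The core GAGGAA was found 2 times before Cd63, 1 time before Cd53 and not before Cd9 or Cd81. All 9 genes matched the table, with 14 windows between them, and the medians over all 32851 windows of this length were 52.4% G and C and 6 CpG pairs. A GC box stood in 7 of the 14 windows, against 32.7% of all windows. By gene, it stood in some window of 4 of the 5 that rose and of 2 of the 4 that did not pass. Counts by gene are not comparable with shares of windows, since Cd82 has 4 windows and Cd151 and Tspan4 have 2 each. GAGGAA stood in 4 of the 14 windows, against 23.3% of all windows, and by gene in a window of 1 of the 5 and of 3 of the 4. The letters CACGTG, an E-box, were found in 2 of the 14 windows, of Cd37 and Tspan4 (6.02% of all windows). Neither TATAAA (12.4%) nor TGANTCA (6.75%) was found for any of the 9. No match overlaps another in the sequences printed. These are matches of letters, and binding was not measured.

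Tspan4, whose protein builds migrasomes, the vesicle-filled bodies that migrating cells leave behind, stood at 42.9, 85.8 and 42.0 CPM in kidney, against 9.53, 8.62 and 7.72 CPM in spleen and marrow. The lowest kidney library was above 4 times the highest of the others. Its log2 fold change was 2.72 ± 0.34 (SE, edgeR's adjusted p = 0.00247), with a 95% interval from 1.95 to 3.50. Replicate 8, the library with the most endothelial transcripts, held the highest level, and without it the log2 fold change was 2.29 (edgeR's adjusted p = 0.00408). It was the one listed gene to pass in every alternative run, with log2 fold changes from 2.29 to 2.90. Without any 1 spleen and marrow library its edgeR adjusted p was 0.0233 to 0.0252. Tspan4 overlaps the gene Chid1 in RefSeq, and the libraries do not mark strand. Reads from the stretch they share cannot be told apart. Chid1 had 1048 counts over the 6 libraries and did not pass (log2 fold change -0.27, edgeR's adjusted p = 0.675).

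Cd9, a plasma membrane tetraspanin that restrains the fusion of macrophages, was at 96.6, 395 and 375 CPM in kidney, against 56.5, 58.3 and 59.1 CPM in spleen and marrow. The spleen and marrow libraries lay within 1.05 times of each other, while the kidney libraries spanned 4.09 times. All kidney libraries were above all of the others, and replicate 7 was the nearest to them. The log2 fold change was 2.32 ± 0.47 (SE, edgeR's adjusted p = 0.0166). In kidney replicates 7, 8 and 22 the endothelial sums were 31.3, 958 and 22.9 CPM and the tubule sums 638, 288 and 1833 CPM. Platelets also carry CD9, and the platelet sums were 301, 370 and 435 CPM in kidney and at most 12.7 CPM in spleen and marrow. Of these kidney sums Pf4 made up 285, 294 and 402 CPM. Gp1bb, a platelet glycoprotein gene, was at 2.96, 20.5 and 20.0 CPM in kidney and at most 1.29 CPM in spleen and marrow. Itgb3 was at 1.54, 12.8 and 0 CPM in kidney, and Treml1 at 1.90, 3.41 and 0 CPM. Ppbp, a chemokine gene of platelets, was at 5.81, 18.1 and 13.5 CPM in kidney and at most 2.68 CPM in spleen and marrow, and Gp9 at 1.66, 17.4 and 0 CPM in kidney and at most 1.09 CPM in spleen and marrow. The part of endothelial, tubule or platelet RNA in the Cd9 result was not tested. The edgeR adjusted p was 0.0838 to 0.0946 on leaving out any of the spleen and marrow libraries and 0.0456 without kidney replicate 8. Fitted by limma-trend to unfiltered FPKM values it was 0.105.

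Cd63, the tetraspanin of late endosomes, lysosomes and released vesicles, was at 265, 329 and 763 CPM in kidney, against 92.7, 128 and 138 CPM in spleen and marrow. The kidney libraries were all higher, and replicate 22 held more than double the level of either other kidney library. The log2 fold change was 1.92 ± 0.39 (SE, edgeR's adjusted p = 0.0175), and without replicate 22 it was 1.29 (edgeR's adjusted p = 0.00413). Tubule markers (1833 CPM) and granulocyte precursor genes (16418 CPM) were highest in the same library. The granulocyte precursor sums were 10445 to 12135 CPM in spleen and marrow. Camp, Ngp, Ltf, Lcn2 and Cebpe were higher in replicate 22 than in every spleen and marrow library. Elane, Mpo, Prtn3, Ctsg and Ms4a3 were lower there. The part of tubule or granulocyte RNA in the Cd63 result was not tested. The edgeR adjusted p was 0.0734 to 0.0987 on leaving out any of the spleen and marrow libraries.

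Cd81, which partners many integrins, was at 35.2, 211 and 69.6 CPM in kidney, against 19.1, 18.1 and 17.5 CPM in spleen and marrow. Kidney replicate 8 was 6 times replicate 7, the widest spread of the 9 genes, and even replicate 7 was above all spleen and marrow libraries. The log2 fold change was 2.54 ± 0.59 (SE, edgeR's adjusted p = 0.0286). Without replicate 8, where the endothelial sum was 958 CPM, it was 1.52 (edgeR's adjusted p = 0.0298). The 9 B cell markers summed to 30.2, 31.5 and 47.3 CPM in kidney and at most 27.9 CPM in spleen and marrow. The call was lost with limma-voom (adjusted p = 0.0685), with limma-trend on FPKM (adjusted p = 0.0652 to 0.172) and on leaving out any of the spleen and marrow libraries (edgeR's adjusted p = 0.117 to 0.127). The libraries do not mark strand, so reads of Cd81 and of R74862, a non-coding gene that overlaps it, cannot be told apart. R74862 had 26, 176 and 50 counts in kidney and 18, 6 and 15 in spleen and marrow (log2 fold change 3.12 ± 0.75 SE, edgeR's adjusted p = 0.0322). Cd9, Cd82 and Cd151 also overlap non-coding genes in RefSeq, so the same limit holds for them.

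Cd151, which binds laminin-binding integrins and is needed for an intact glomerular basement membrane in mice, had the lowest FPKM of the 9 genes in both groups. It stood at 7.11, 12.9 and 15.3 CPM in kidney, against 1.72, 2.74 and 2.25 CPM in spleen and marrow. These rest on 60, 102 and 52 counts in kidney and 15, 20 and 21 in spleen and marrow. No kidney library overlapped with the others, and the log2 fold change was 2.38 ± 0.45 (SE, edgeR's adjusted p = 0.0133, and 0.0676 to 0.0872 on leaving out any of the spleen and marrow libraries). Cd151 is best known in podocytes of the glomerulus, whose defining gene Nphs1 was at most 1.17 CPM in kidney and at 0 in spleen and marrow, while Podxl and Synpo reached 52.9 and 13.9 CPM in kidney replicate 8. Cd151 and Tspan4 are neighbours on the chromosome in the RefSeq table, with Polr2l between them, a subunit gene of the RNA polymerases that did not pass (log2 fold change -0.62 ± 0.31 SE, edgeR's adjusted p = 0.234).

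Cd82, Cd37, Cd53 and Tspan3 did not pass. Cd82, known as a suppressor of metastasis, was at 32.6, 42.1 and 46.1 CPM in kidney and 21.9, 26.3 and 26.4 CPM in spleen and marrow. The groups did not overlap, but the log2 fold change of 0.69 ± 0.22 (SE) had an edgeR adjusted p of 0.0741, and of 0.0454 without kidney replicate 7, while DESeq2 gave an adjusted p of 0.0406. Cd37, a tetraspanin of leukocytes that is most abundant in B cells, was the one gene with lower values in kidney, at 68.1, 70.6 and 86.3 CPM against 96.7, 103 and 115 CPM in spleen and marrow. Its log2 fold change was -0.48 ± 0.16 (SE, edgeR's adjusted p = 0.0935), with adjusted p of 0.0197 without kidney replicate 22 and of 0.0457 by DESeq2.

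Cd53, found on all leukocytes and known to hold the homing receptor L-selectin at the surface, was at 614, 681 and 755 CPM in kidney and 505, 611 and 618 CPM in spleen and marrow. The groups overlapped, and the log2 fold change of 0.24 ± 0.14 (SE, edgeR's adjusted p = 0.311) had a 95% interval from -0.08 to 0.57, which leaves out a change as large as 2-fold in either direction. Tspan3 was at 18.6, 35.6 and 11.7 CPM in kidney replicates 7, 8 and 22 and 18.3, 19.2 and 21.1 CPM in spleen and marrow. Its kidney libraries lay on both sides of the others. The log2 fold change was 0.19 ± 0.39 (SE, edgeR's adjusted p = 0.799) and turned to -0.36 without kidney replicate 8.

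**Figure D3:**
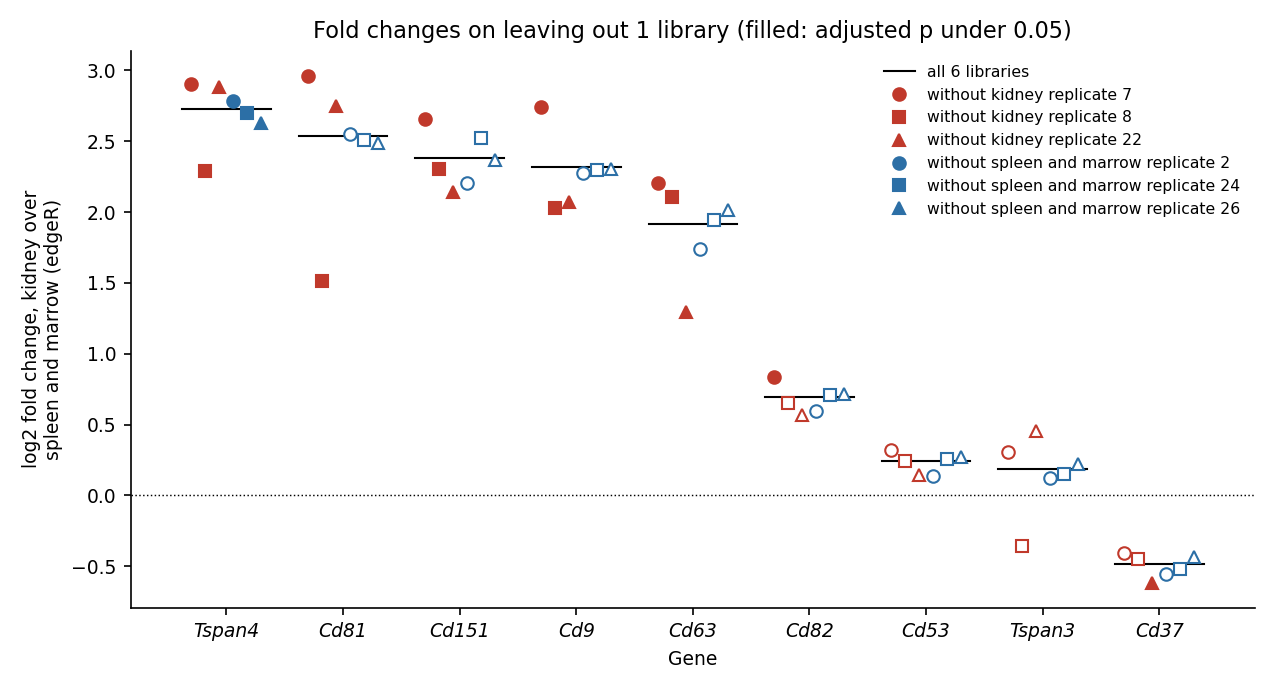
Log2 fold change of each of the 9 genes with all 6 libraries (black bar) and on leaving out 1 library at a time, from edgeR, where filled points have an adjusted p under 0.05. Tspan4 is filled throughout, and Cd81, Cd151, Cd9 and Cd63 turn open without a spleen and marrow library while their fold changes move little.

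Levels can be compared between genes only per transcript length, in the authors' FPKM values. In kidney, Cd63 averaged 314 ± 102 FPKM, Cd9 137 ± 80.9, Cd53 103 ± 15.2, Cd81 36.7 ± 35.3, Cd37 32.3 ± 2.2, Tspan4 21.1 ± 11.6, Cd82 10.3 ± 2.00, Tspan3 6.09 ± 4.06 and Cd151 2.71 ± 0.729 FPKM (mean ± SD, n = 3). In spleen and marrow, Cd63 averaged 95.3 ± 21.3 FPKM, Cd53 94.0 ± 10.7, Cd37 48.1 ± 4.68, Cd9 29.3 ± 0.969, Cd82 7.23 ± 0.953, Cd81 5.97 ± 0.376, Tspan3 5.52 ± 0.370, Tspan4 3.18 ± 0.675 and Cd151 0.554 ± 0.174 FPKM (mean ± SD, n = 3). Neighbours whose ranges overlapped in kidney were Cd9 and Cd53, Cd81 and Cd37, Cd37 and Tspan4, Tspan4 and Cd82, Cd82 and Tspan3, and Tspan3 and Cd151. In spleen and marrow, Cd63 and Cd53 overlapped, as did Cd82 and Cd81, and Cd81 and Tspan3.

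Ratios of 2 genes within a library do not depend on how libraries are scaled. Cd63 stood at 2.21, 2.47 and 4.80 times Cd53 in kidney replicates 7, 8 and 22 on the FPKM scale, against 0.873, 1.03 and 1.11 times in spleen and marrow. For Cd9 over Cd53 the ratios were 0.512, 1.79 and 1.65 in kidney and 0.345, 0.301 and 0.295 in spleen and marrow. Both ratios were higher in all kidney libraries, and an exact permutation test of 3 against 3 libraries could not give a two-sided p below 0.1. As a share of the summed FPKM of the 9 genes, Cd63 made up 47.9 ± 10.5% in kidney and 32.7 ± 3.38% in spleen and marrow, and Cd9 19.3 ± 7.68% in kidney against 10.2 ± 1.06% in spleen and marrow (means with SD, n = 3 each). The Cd9 shares overlapped, with 11.38% in kidney replicate 7 and 11.40% in spleen and marrow replicate 2, and their difference of 9.08 percentage points was 5.37 without kidney replicate 8. Cd53 made up 16.4 ± 5.27% in kidney and 32.6 ± 0.769% in spleen and marrow, and Cd37 5.18 ± 1.77% and 16.7 ± 1.14%. Cd53 and Cd37, the leukocyte-restricted members, had smaller shares in kidney, while their CPM levels did not pass the test.

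**Figure D4:**
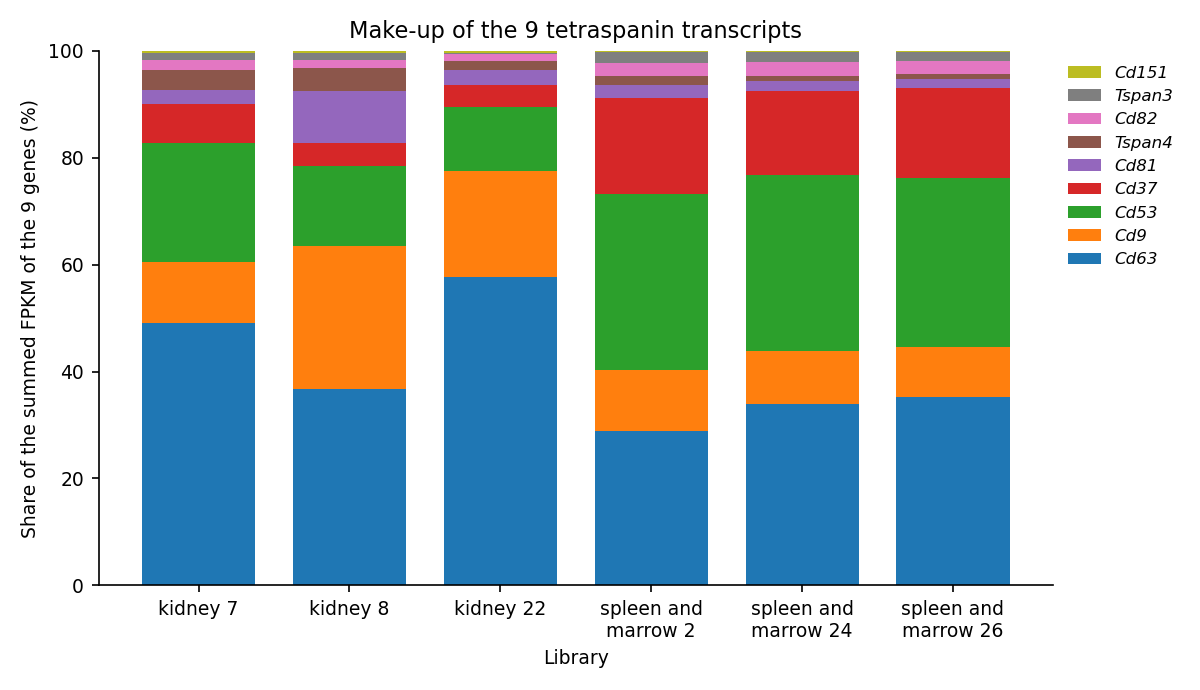
Share of each gene in the summed FPKM of the 9 genes, per library, kidney libraries left of spleen and marrow libraries. Cd63 takes 36.8% to 57.7% in kidney and 28.8% to 35.2% in spleen and marrow, and Cd53 and Cd37 take smaller shares in every kidney library.

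The rest of the family was followed through 22 further genes, all with a row, of which 9 passed the count filter. edgeR passed none of the 9 in either direction, with 1 higher and 1 lower at an unadjusted p under 0.05. With limma-voom 0 passed, and with DESeq2 1 passed as higher. The shares of all tested genes were 7.83% higher and 5.9% lower with edgeR, and 15.4% and 12.5% without adjustment. By DESeq2 they were 11% and 9.39%. Counts of 0 or 1 among 9 genes are near these shares. The median log2 fold change of the 9 was -0.12. Tspan13, Tspan31 and Tspan32 had the highest mean FPKM. Tspan13 was at 99.5, 150 and 46.7 CPM in kidney and 123, 95.3 and 104 CPM in spleen and marrow, where the groups overlapped. Tspan31 was at 106, 117 and 102 CPM in kidney and 137, 125 and 130 CPM in spleen and marrow, without overlap (log2 fold change -0.27 ± 0.14 SE, edgeR's adjusted p = 0.248). Tspan32, a gene of blood cells, was at 28.2, 31.0 and 21.1 CPM in kidney and 36.3, 41.2 and 43.6 CPM in spleen and marrow (log2 fold change -0.59 ± 0.22 SE, edgeR's adjusted p = 0.122). The TspanC8 group, which guides the protease ADAM10 to the surface, had 4 of 6 genes tested and none that passed. Among them Tspan17 stood at a log2 ratio of 1.08 ± 0.34 (SE, edgeR's adjusted p = 0.0758, DESeq2 adjusted p = 0.0328), and Tspan14, the most abundant, -0.03 ± 0.24 (SE, edgeR's adjusted p = 0.944). Adam10, chosen after its value was seen, had 0.25 ± 0.28 (SE, edgeR's adjusted p = 0.615).

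A different set of tetraspanins appeared mainly in 1 library. Of the 13 genes below the count filter, 4 had no count anywhere (Tspan1, Tspan10, Tspan11 and Upk1b), and 7 had at least 30 counts in kidney, namely Tspan6, Tspan7, Tspan8, Tspan9, Tspan12, Tspan15 and Tspan18. These 7 together had 73, 680 and 5 counts in kidney replicates 7, 8 and 22 and 17 in the 3 spleen and marrow libraries together. Tspan7 had 13, 240 and 0 counts in kidney and 6, 0 and 2 in spleen and marrow. Tspan12, which takes part in Norrin and Frizzled-4 signalling in retinal vessels, had 12, 69 and 0 counts in kidney and none in spleen and marrow. Replicate 8 held 75.8% to 98.7% of the kidney counts of each of the 7, and it was also the library with 958 CPM of endothelial markers against 31.3 and 22.9 CPM. Other kidney markers were also highest there among the kidney libraries. Podxl, a gene of podocytes and endothelium, was at 1.66, 52.9 and 1.17 CPM in kidney, and Synpo, a podocyte gene, at 1.07, 13.9 and 0 CPM, with both at most 0.137 CPM in spleen and marrow. The 11 fibroblast and mural markers summed to 16.5, 64.1 and 13.2 CPM in kidney and at most 13.2 CPM in spleen and marrow. The part of RNA from any of these cells in the counts was not tested, and in bulk libraries fewer cells and less RNA per cell cannot be told apart. Tspan7, Tspan8 and Tspan12 had 0 counts in kidney replicate 22, and leaving it out let them through the count filter. edgeR then passed them as higher in kidney, as it did 1569 of 10988 genes tested in that fit. They entered through the libraries where they are high, so these calls give no support of their own.

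**Figure D5:**
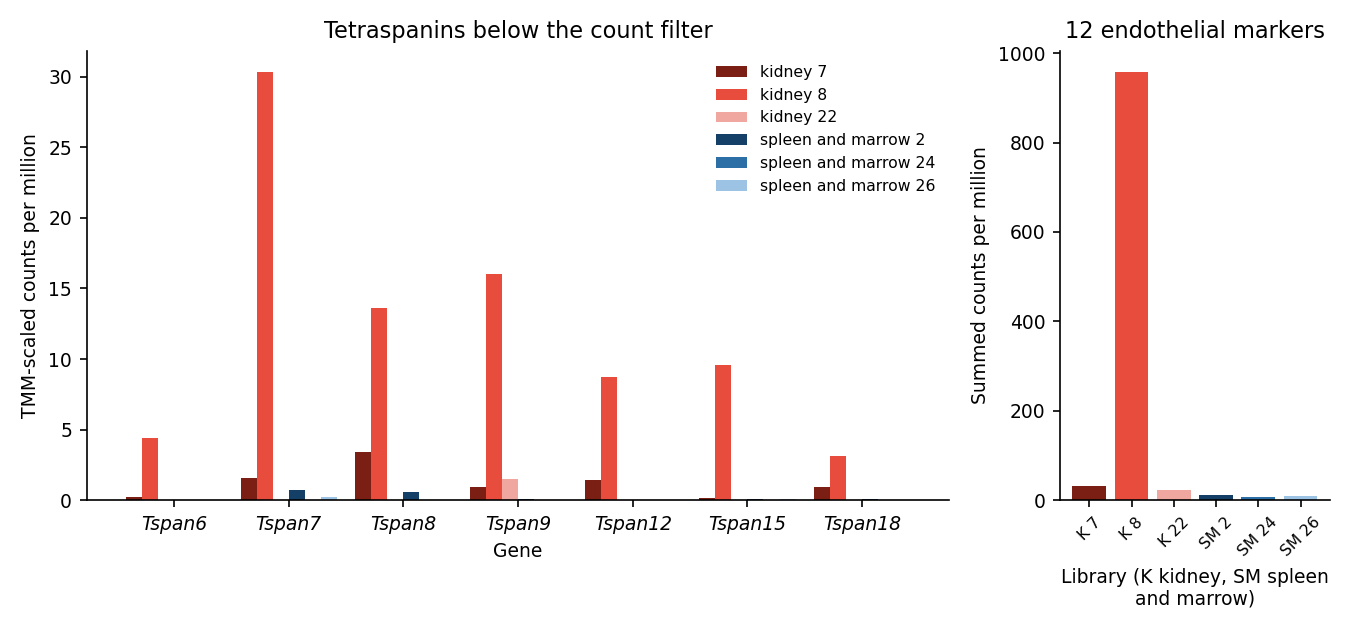
Level of the 7 tetraspanin genes below the count filter with at least 30 counts in kidney (left), and summed level of 12 endothelial markers (right), in TMM-scaled CPM per library. Kidney replicate 8 has the tallest bar for each gene and for the endothelial sum of 958 CPM.

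Tetraspanins act by holding other proteins, and 24 genes of such partners were followed, of which 20 were tested, 6 rose and 2 fell (median log2 fold change 0.56). Over all tested genes 7.83% rose and 5.9% fell. The integrin subunit gene Itga6, whose product pairs with beta chains to bind laminin and associates with CD151, was at 38.9, 35.6 and 30.2 CPM in kidney, against 3.22, 2.33 and 1.71 CPM in spleen and marrow, with a log2 ratio of 3.85 ± 0.33 (SE, edgeR's adjusted p = 0.000746). Every kidney library was far above the others. Itgb1, the beta chain, chosen after its value was seen, was at 177, 211 and 151 CPM in kidney and 100.3, 79.8 and 76.4 CPM in spleen and marrow (log2 fold change 1.07 ± 0.18 SE, edgeR's adjusted p = 0.00936, and up to 0.0727 without spleen and marrow replicate 24 or 26). The scavenger receptor gene Cd36 rose by a log2 fold of 4.06 ± 0.52 (SE, edgeR's adjusted p = 0.00279). Icam1, an adhesion ligand of leukocyte integrins, rose by 1.46 ± 0.23 (SE, edgeR's adjusted p = 0.00688, and up to 0.0557 without spleen and marrow replicate 24 or 26). The interferon-induced membrane genes Ifitm3 and Ifitm1 fell by 0.88 ± 0.13 and 2.09 ± 0.51 on the log2 scale (SE, edgeR's adjusted p = 0.00573 and 0.0330). Ifitm1 was at 116, 110 and 91.0 CPM in kidney and 878, 235 and 239 CPM in spleen and marrow, and the edgeR adjusted p was 0.0865 and 0.0782 without kidney replicate 7 or 8. Without spleen and marrow replicate 2 its log2 fold change was -1.17 (edgeR's adjusted p = 0.0183).

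Genes that make and release endosomal vesicles are a further group in which CD63 works. Of 22 such genes 19 were tested, 1 rose and 2 fell, with a median log2 fold change of 0.08. These counts are near the shares of all tested genes, 7.83% and 5.9%. Sdcbp, which encodes syntenin, an adaptor that binds CD63, was at 396, 480 and 405 CPM in kidney and 274, 308 and 317 CPM in spleen and marrow, with a log2 ratio of 0.51 ± 0.14 (SE, edgeR's adjusted p = 0.0451). It did not pass without kidney replicate 8 or on leaving out any of the spleen and marrow libraries (edgeR's adjusted p = 0.0981 to 0.161). Rab27a, a GTPase that docks vesicles at the plasma membrane, fell by 2.46 ± 0.34 on the log2 scale (SE, edgeR's adjusted p = 0.00425), at 6.40, 4.04 and 2.94 CPM in kidney against 23.7, 26.8 and 24.9 CPM in spleen and marrow. The membrane scaffold gene Flot2 fell by 1.14 ± 0.23 (SE, edgeR's adjusted p = 0.0165, and 0.0717 to 0.0925 on leaving out any of the spleen and marrow libraries). The difference between Cd63 and this list was not tested. Of 8 genes of macrophage fusion, the process that CD9 and CD81 restrain, 6 were tested and 3 rose, compared with 7.83% of all tested genes. Trem2, a lipid receptor, rose by a log2 fold of 1.44 ± 0.16 (SE, edgeR's adjusted p = 0.00157). Sirpa and Adam9 rose by 0.94 ± 0.21 and 1.09 ± 0.29 (SE, edgeR's adjusted p = 0.0239 and 0.0440), and neither passed without kidney replicate 7 (edgeR's adjusted p = 0.0586 and 0.0910) or on leaving out any of the spleen and marrow libraries (up to 0.118 and 0.197).

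The genes whose levels moved most like a listed gene were found by the root mean square distance between centred log2 CPM values over the 6 libraries, among 5390 genes whose log2 CPM averaged 4 or more. For Tspan4 they were Aif1, which encodes the macrophage protein IBA1, the creatine kinase gene Ckb and the GTPase gene Rab20, at distances of 0.222, 0.275 and 0.278 on the log2 scale. Aif1 was at 1279, 2035 and 1599 CPM in kidney and 337, 259 and 277 CPM in spleen and marrow. For Cd37 they were Rbm3, Hist1h1c and Gtf2b, at distances of 0.039, 0.041 and 0.048.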

How the data were processed

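Per the labels' protocols, 2 ng of RNA went into SMART-Seq v4 cDNA synthesis and fragments of about 150 bp into ThruPLEX libraries, which do not mark strand. The submitters' processing notes name bcl2fastq 2.18, STAR 2.5, Cufflinks 2.2.1 and build mm9 without roles, and how reads were assigned to genes is not given in the sources used here. The authors deposited raw counts per gene symbol (24047 rows) and FPKM values (24043 rows). The FPKM table lists Lyz2 at 0 in 1 spleen and marrow library, where it has 502608 counts, so an FPKM of 0 can be a failed estimate. RefSeq sequences are of GRCm38, so they are not placed on the files' build.

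Tests on the counts used edgeR 4.0.16 (R 4.3.3) after filterByExpr (10626 genes kept) and TMM scaling, with two-sided quasi-likelihood tests of kidney over spleen and marrow and Benjamini-Hochberg adjustment over all genes (threshold 0.05). The standard error is the log2 fold change divided by the square root of F. A floor of 3 counts is 0.322 to 0.881 CPM. Alternatives used DESeq2 1.42.0, limma 3.58.1, other scalings and filters, thinning and left-out libraries, and the fit was checked on simulated data. Figures used matplotlib 3.10.9. The members and gene lists were chosen with earlier results of these data known. Named genes are the 9 members, called or abundant tetraspanins, up to 3 called genes per list and direction, and the 3 genes nearest in pattern to the member of smallest p in each direction. RefSeq lists the pseudogenes Cd9-ps and Cd63-ps, which were not analysed here, and reads from such copies could count toward either gene. Some items are not reported here.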

Additional observations from a re-analysis of the deposited data

How the results depend on the processing

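Tspan4 kept its direction and call in all 18 alternatives, and the direction of Cd9, Cd63, Cd81, Cd151, Cd82, Cd53 and Cd37 held in all 18. The number of listed genes that rose was 5, with 6 by DESeq2 and 4 by limma-voom and by each limma-trend fit to filtered FPKM. It was 3 on limma-trend of log2(FPKM + 1) without a filter and 1 with spleen and marrow replicates 24 and 26 summed. On leaving out 1 library it was 1 to 6. For the other lists and for all genes below, settings whose count lay close to the main one are not named. The number that fell was 0, 1 with DESeq2, and 0 to 1 on leaving out 1 library. Other tetraspanins that rose were 0, 1 with DESeq2 and 1 with edgeR without a filter (Tspan9), and 0 to 3 on leaving out 1 library. Partner genes that rose were 6, with 3, 3 and 2 on limma-trend (FPKM + 1, FPKM + 0.1, and FPKM + 1 without a filter), 2 with replicates 24 and 26 summed and 2 to 9 on leaving out 1 library. Partner genes that fell were 2, with 1, 1 and 0 on the same FPKM fits and 1 to 3 on leaving out 1 library. Vesicle genes that rose were 1, with 0 under RLE scaling, no filter, each FPKM fit and the summed library, 2 with library size only, DESeq2 or thinning, and 0 to 1 on leaving out 1 library. Vesicle genes that fell were 2, with 1 in the summed library and 1 to 2 on leaving out 1 library. Fusion genes that rose were 3, with 1 in each FPKM fit and in the summed library, and 1 to 4 on leaving out 1 library. Over all genes, 832 rose and 627 fell. FPKM fits gave 407, 407 and 333 higher, DESeq2 995 lower, and the summed library 299 and 201. Leaving out 1 library gave 260 to 1569 higher and 179 to 1215 lower. Calls higher in kidney were 57.0% of all calls, 46.8% with limma-voom, and 38.4%, 41.5% and 40.7% on the FPKM fits, where the median of all filtered genes was -0.16 (FPKM + 1) and -0.22 (FPKM + 0.1) against 0.05.

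Log2 fold changes that changed sign were all of genes that did not pass. Tspan3 was at -0.051, -0.098 and -0.051 on the FPKM fits. With library size only Tspan5 was at 0.025 and Tspan14 at 0.038, and after thinning Tspan5 was at 0.077. On leaving out 1 library the range was -0.36 to 0.46 for Tspan3, -0.99 to 0.062 for Tspan2, -0.60 to 0.37 for Tspan5, -0.56 to 0.19 for Tspan13, -0.27 to 0.12 for Tspan14 and -1.64 to 0.14 for Rom1. The log2 fold change of Cd151, a low gene, was 1.24 on log2(FPKM + 1), which understates the change of low genes. The cause of these changes was not tested. Every fit without 1 library has fewer residual degrees of freedom. Over all genes, fits without a kidney library passed 891 to 1569 higher and 490 to 1215 lower. Fits without a spleen and marrow library passed 260 to 289 higher and 179 to 208 lower. No paired analysis was possible because the groups share no replicate number.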
